A study of Mus musculus with 72 samples.

Results

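The response to gastrin-releasing peptide (GRP) was examined in the 2 mouse melanoma lines that carried no GRP receptor, 1181-Ctrl and 1014-Ctrl. The comparison asked what the peptide did to the transcriptome when its receptor was missing. It took every library of these lines labelled GRP or mock, 12 of the 72 libraries of the series, with 3 replicates per treatment in each line. One of them, 1014-Ctrl mock replicate 2, went against its label and was left out, so that 11 libraries of GRP or mock were compared. The fits also held the libraries of these lines under the other treatments. No gene passed the test at a 2-fold change in either line or in both lines combined. Without the fold limit 1 did, Xist in 1014-Ctrl.

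Both lines came from mouse melanomas driven by NRASQ61K expressed from the Tyr (tyrosinase) promoter, which directs it to pigment cells. The 1181-Ctrl line was male, with the genotype Tyr::NRASQ61K/°; Cdkn2a-/-; Cdh1dF/dF, and the 1014-Ctrl line was female, with Tyr::NRASQ61K/° alone. Each had been transfected with a plasmid for the green fluorescent protein tGFP under the CMV promoter and selected with geneticin, and each is a single cell line. Their counterparts 1181-Grpr and 1014-Grpr carried a Grpr plasmid instead, and the remaining lines of the series, 1057 and 1064, express the receptor themselves. Before treatment the serum was lowered to 0.5% for 18 h, and the cells then received for 4 h 0.1% DMSO (mock), 10 nM GRP, 1 µM of the GRPR antagonist RC-3095 (RC), or GRP with RC-3095 (GRP+RC). Poly(A) RNA was sequenced and reads were counted per gene.

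GRP is a neuropeptide of the bombesin family. Its receptor GRPR, encoded by the X-linked gene Grpr, is coupled to Gq proteins, which activate phospholipase C beta. The second messengers that follow release calcium and activate protein kinase C, and the signal reaches the ERK cascade and the immediate-early transcription factors such as Fos and Egr1. Neuromedin B (Nmb) and its receptor (Nmbr) form the sister pair, and Brs3 is an orphan receptor of the same family. GRP binds the neuromedin B receptor only weakly.

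The 12 libraries held 19714679 to 30852675 counted reads each, of which 2.14 to 2.59% were mitochondrial. A count of 3, taken as the limit of detection, corresponded to at most 0.152 CPM in them (reads of a gene scaled to the library size, as counts per 1e6), a limit that covers counting error only. The samples were bulk RNA, in which fewer cells of a type and less RNA per cell cannot be told apart. The study's methods describe biological replicates for its cell-culture work in general, while the labels of these libraries do not say whether they came from separate cultures. P-values measure the spread between these samples. Melanocyte-lineage transcripts were detected for all 13 listed markers in both lines. In the GRP and mock libraries their summed level was 8270 to 9180 CPM in 1181-Ctrl and 40200 to 44300 CPM in 1014-Ctrl. Of the markers of other cells, the 7 fibroblast markers summed to 2.86 to 5.02 CPM in 1181-Ctrl and to 68.5 to 95.2 CPM in 1014-Ctrl, where Postn made up most of the sum and Lum was at 0. The 5 endothelial markers, with Vwf the main one, summed to 3.78 to 7.86 CPM and to 6.61 to 13 CPM, and Cdh5 was at 0 except in GRP libraries of 1014-Ctrl. The sum of 5 keratinocyte markers did not exceed 1.01 CPM. The 7 immune markers summed to 34.2 to 54.4 CPM in 1181-Ctrl and to 3.51 to 5.25 CPM in 1014-Ctrl, and for these lists the ranges of GRP and mock overlapped in each line where the genes were detected.

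The receptor was checked first, over all treatments. In the 12 libraries of 1181-Ctrl Grpr had 12 reads in all, with a highest level of 0.0914 CPM, and in 11 libraries of 1014-Ctrl it had 2 reads in all, with a highest level of 0.0334 CPM. By contrast, Grpr lay between 108 and 632 CPM in the 12 libraries of 1014-Grpr and between 8.46 and 80.7 CPM in 11 libraries of 1181-Grpr. Brs3 had no read in either control line. Nmbr was at most 0.219 CPM in 1181-Ctrl and 0.343 CPM in 1014-Ctrl. Of the ligands, Grp itself reached 0.0822 CPM in 1181-Ctrl and was at 0 in 1014-Ctrl, and Nmb lay between 0.449 and 1.13 CPM over both lines. Nmb was the only bombesin-family gene with enough reads to be tested, and its log2 fold change for GRP against mock was -0.22 ± 0.20 (SE) in the combined fit.

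Cdkn2a, labelled as deleted in 1181-Ctrl, lay between 1.29 and 2.26 CPM there and between 70.7 and 86.9 CPM in 1014-Ctrl. Cdh1, labelled dF/dF in 1181-Ctrl, still had 14.4 to 27.0 CPM in that line, above the 1.88 to 5.13 CPM of 11 libraries of 1014-Ctrl. The study counts line 1181 among its Ecad-positive cells. The library labelled 1014-Ctrl mock replicate 2 stood apart. It held Grpr at 48.1 CPM and the Y-linked gene Ddx3y at 64.3 CPM, whereas Ddx3y was at 0 in the 11 other libraries of this female line. Its Xist level, the RNA that silences one X chromosome in female cells, was 172 CPM against 582 to 1060 CPM, and its Dct level, a melanin-synthesis gene, was 5590 CPM against 20800 to 22700 CPM. The 11 libraries of 1181-Grpr that were used lay near it, with Ddx3y at 36.9 to 63.0 CPM, Xist at 192 to 251 CPM and Dct at 5270 to 5750 CPM. The library labelled 1181-Grpr GRP+RC replicate 2 showed the opposite, with Grpr and Ddx3y at 0, Xist at 796 CPM and Dct at 21800 CPM, and it too was left out. In the other 1181-Grpr libraries Xist and Dct were far above the 0.0282 to 0.639 CPM and 161 to 337 CPM of 1181-Ctrl, so these versions of line 1181 differed in more than Grpr. The part of these differences in the comparisons of 1181-Grpr with 1181-Ctrl was not tested.

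**Figure D1:**
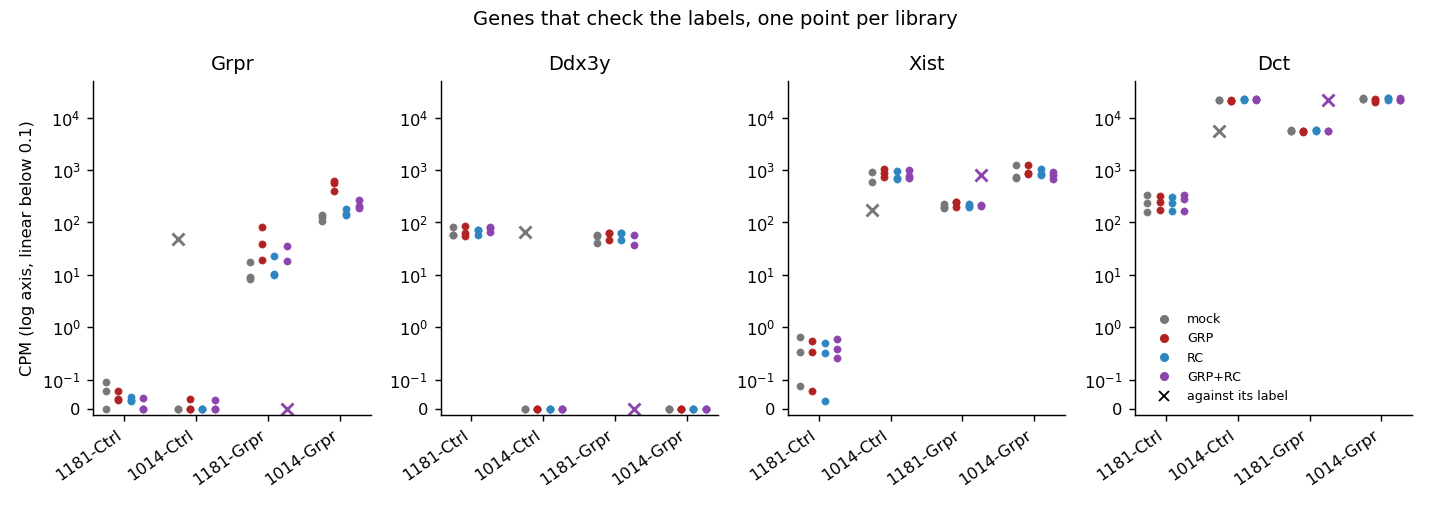
Levels of Grpr, Ddx3y, Xist and Dct in each library (CPM, log axis that is linear below 0.1) by line, coloured by treatment, with the libraries that went against their labels marked. Grpr was at or near 0 in the control lines except in 1014-Ctrl mock replicate 2, where it was 48.1 CPM beside 64.3 CPM of Ddx3y.

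Each line was then tested for GRP against mock with edgeR's quasi-likelihood test, with the replicate number as a block, and a gene was called when its Benjamini-Hochberg adjusted p was below 0.05 and its change at least 2-fold. In 1181-Ctrl 0 of 14188 genes tested were called (0%). At an unadjusted p below 0.05 there were 513 genes (3.62%), 254 higher and 259 lower, and the lowest adjusted p was 1. In 1014-Ctrl 0 of 13918 genes were called (0%). Here 795 genes (5.71%) had an unadjusted p below 0.05, 469 higher and 326 lower, beside the 5% that such a limit gives when nothing differs. With both lines combined 0 of 15284 genes were called (0%), 578 (3.78%) had an unadjusted p below 0.05, and the lowest adjusted p was 1. DESeq2 also called 0 genes in each line and in the combined fit, with 195, 237 and 310 genes at an unadjusted p below 0.05.

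Without the fold limit a single gene passed, Xist in 1014-Ctrl, which was 1 of 13918 genes (0.00718%); none passed in 1181-Ctrl or in the combined fit (0% each). The difference between the GRP effects of the 2 lines was tested as well, and 0 of 15284 genes were called (0%), with 763 at an unadjusted p below 0.05 and a lowest adjusted p of 0.868. The same fits made in the lines that have the receptor called 915 genes in 1057, 900 in 1064, 638 in 1014-Grpr and 16 in 1181-Grpr, with 702, 480, 474 and 16 of them higher under GRP. Keeping the library that went against its label left 0 genes called in 1014-Ctrl, but gave 209 in the combined fit, all lower under GRP.

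**Figure D2:**
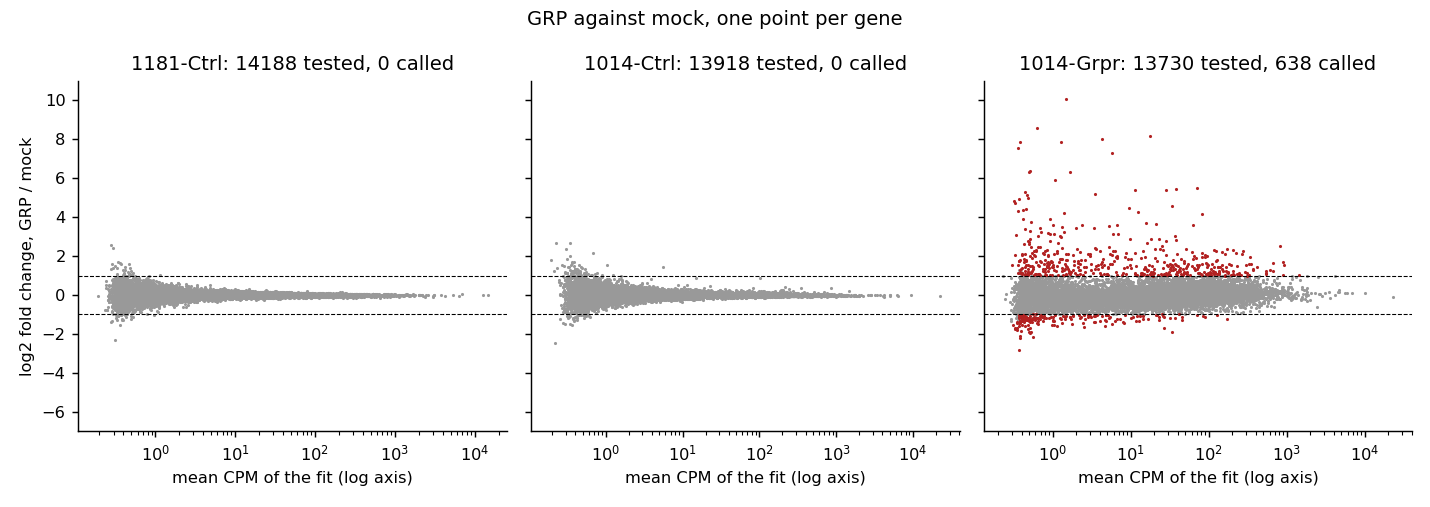
Log2 fold change of GRP against mock for every gene tested against its mean level (CPM, log axis) in 1181-Ctrl, 1014-Ctrl and 1014-Grpr, with called genes coloured. The control panels hold no called gene beside 638 in 1014-Grpr.

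The width of the intervals shows how tight this null result was. The median absolute log2 fold change was 0.046 in 1181-Ctrl and 0.051 in 1014-Ctrl, about 1.03-fold in 1181-Ctrl and 1.04-fold in 1014-Ctrl. The 95% confidence interval of the fold change lay wholly within 2-fold in either direction for 90.2% of the genes tested in 1181-Ctrl, for 88.1% in 1014-Ctrl and for 85.2% in the combined fit. Within 1.5-fold it lay for 80.0, 78.9 and 75.8% of genes, and within 1.2-fold for 65.1, 63.1 and 64.3%. The combined fit also holds genes that only one of the lines expresses. Over the 12992 genes tested in each line alone, 97.6% of its intervals lay within 2-fold and 89.1% within 1.5-fold, with a median half-width of 0.089 on the log2 scale.

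Precision followed the expression level. Of genes over 100 CPM, all intervals were within 2-fold in 1181-Ctrl and all but 1 of 2481 in 1014-Ctrl, and 99.7% in 1181-Ctrl and 99.1% in 1014-Ctrl were within 1.2-fold. Between 10 and 100 CPM 93.4 and 90.9% were still within 1.2-fold. Between 1 and 10 CPM 98.1 and 95.4% lay within 2-fold, but only 8.28 and 5.96% within 1.2-fold. Under 1 CPM the share within 2-fold was 34.8% in 1181-Ctrl and 20.9% in 1014-Ctrl, so for most of these genes the interval did not exclude a 2-fold change.

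**Figure D3:**
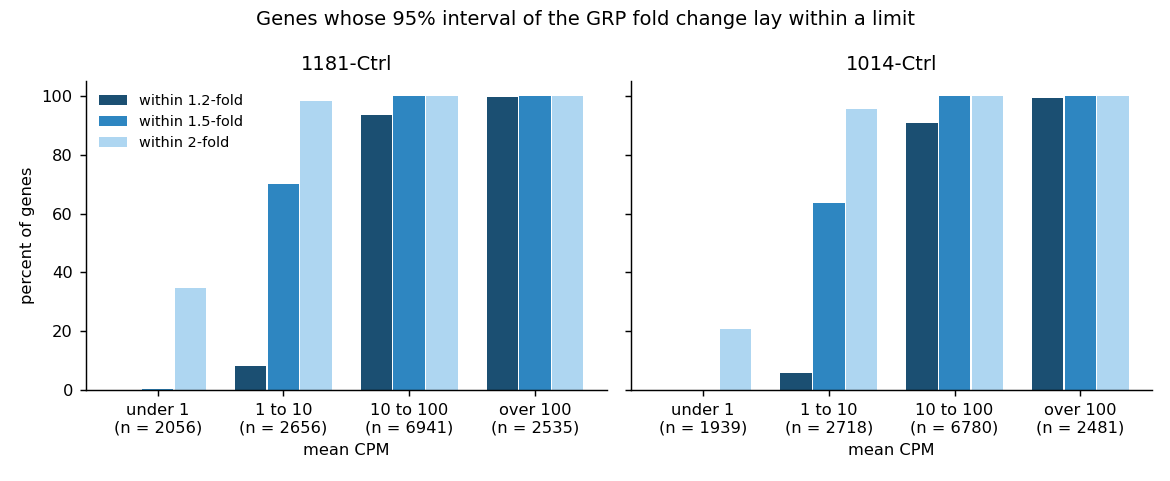
Share of genes (percent) whose 95% interval for GRP against mock lies within 2-, 1.5- or 1.2-fold, by mean level (CPM) in 1181-Ctrl and 1014-Ctrl. The share within 2-fold rounds to 100% above 10 CPM and falls to 34.8% and 20.9% under 1 CPM.

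Few point estimates passed 2-fold, 49 in 1181-Ctrl and 96 in 1014-Ctrl, and all but 1 and 3 of these genes were under 1 CPM. In 1014-Ctrl noncoding RNAs were among the larger changes, Rn7sk, the 7SK RNA that has no poly(A) tail, included, and 3 of them were chosen after their values were seen. Gm42418, a noncoding gene known to collect reads of ribosomal RNA, was at 78.8 and 80.3 CPM in the 2 mock libraries and at 80.7, 64.8 and 274 CPM in the GRP libraries. The microRNA gene Mir6236 was at 3.76 and 3.14 CPM under mock and at 4.06, 3.44 and 17 CPM under GRP. Rn7sk was at 0.190 and 0.406 CPM under mock and at 0.180, 0.110 and 2.87 CPM under GRP. In all 3, one library stood apart, GRP replicate 3, and the other GRP libraries lay close to mock. RC replicate 3 was raised as well, with Gm42418 at 132 CPM against 74.7 and 72.5 CPM in the other RC libraries. Without GRP replicate 1 in the fit, 4 genes were called in 1014-Ctrl, Gm23935, Gm42418, Mir6236 and Rn7sk, all higher under GRP. The part of RNA or library quality in these values was not tested.

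In 1014-Ctrl the gene with the lowest p was Xist (X: 103460366 to 103483254, minus strand, GRCm38). It was at 582 and 925 CPM in mock replicates 1 and 3 and at 874, 752 and 1058 CPM in the GRP libraries. The groups overlapped, and within both pairs of equal number the GRP library was the higher one. The fitted log2 fold change was 0.34 ± 0.055 (SE), with an adjusted p of 0.0496 in edgeR's test, and this p was 1 without the replicate block, 0.999 without mock replicate 1 and 0.843 in DESeq2. With RC-3095 present the levels were 679, 709 and 952 CPM without GRP and 697, 755 and 996 CPM with it, and the change was 0.06 ± 0.048. Xist overlaps its antisense gene Tsix over part of its exons, and how the counting treated strand is not given in the sources used here.

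Ubn2, a subunit of the HIRA histone chaperone complex, and Luc7l2, a splicing factor of the U1 particle, came next with Sox11, a transcription factor of neural progenitors. Ubn2 was at 177 and 267 CPM under mock and at 258, 217 and 300 CPM under GRP, with a log2 fold change of 0.30 ± 0.060 and an adjusted p of 0.191. Luc7l2 was at 580 and 738 CPM under mock and at 666, 625 and 803 CPM under GRP (0.15 ± 0.028, adjusted p 0.171). The treatments overlapped in both genes, which lie near each other on chromosome 6 (Ubn2 at 38433950 to 38524825, Luc7l2 at 38551334 to 38609470). Sox11 was at 38.7 and 52.8 CPM under mock and at 46.4, 49.5 and 60.6 CPM under GRP (0.24 ± 0.047, adjusted p 0.171). The protein-coding gene 5430403G16Rik was at 2.09 and 2.92 CPM under mock and at 4.35, 3.22 and 5.38 CPM under GRP, without overlap (0.85 ± 0.18, adjusted p 0.255). Malat1, a nuclear RNA singled out after its values were seen, was at 311 and 314 CPM under mock and at 517, 314 and 350 CPM under GRP. GRP replicate 1 held its highest value, so the libraries in which Malat1 and the other noncoding RNAs stood out were not the same.

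In 1181-Ctrl the leading genes were others, and each had an adjusted p of 1 by the same test. Adam11, a member of the ADAM family without protease activity, was at 4.18, 2.62 and 4.34 CPM under mock and at 5.51, 4.03 and 6.25 CPM under GRP, with a log2 fold change of 0.49 ± 0.12. Ero1l, the oxidase that drives disulphide formation in the endoplasmic reticulum, was at 673, 1114 and 701 CPM under mock and at 633, 1020 and 652 CPM under GRP (-0.12 ± 0.030). Wee1, the kinase that holds back mitotic entry, was at 47.3, 28.4 and 23.8 CPM under mock and at 45.2, 24.7 and 18.5 CPM under GRP (-0.21 ± 0.052). The treatments overlapped in all 3 genes, and in each of them the 3 pairs of equal number moved the same way. Gm48069 (1.048 ± 0.25) and the antisense gene D030047H15Rik (2.42 ± 0.74) had non-overlapping groups but low levels, between 0.536 and 1.63 CPM and between 0.0383 and 0.346 CPM. In 1014-Ctrl the log2 fold change of Gm48069 was -0.41 ± 0.43.

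The genes with the lowest p of the combined fit and the same sign in both lines were Kazald1, Marveld1, Fbxw4, Bche, Ncmap, 5430403G16Rik, Hhipl2, Ing4, Sgf29 and Shisa8, each with an adjusted p of 1. Kazald1, a secreted protein with a Kazal protease-inhibitor domain, was at 0.996, 3.54 and 3.02 CPM under mock and at 1.73, 4.38 and 4.58 CPM under GRP in 1181-Ctrl. In 1014-Ctrl Kazald1 was at 4.67 and 5.57 CPM under mock and at 5.46, 8.01 and 6.41 CPM under GRP. The treatments overlapped in each line, and the combined log2 fold change was 0.38 ± 0.090. Fbxw4, an adaptor of ubiquitin ligases, was at 24.4, 27.5 and 27.3 CPM under mock and at 26.1, 29.8 and 31.8 CPM under GRP in 1181-Ctrl, and at 30.9 and 28.5 against 34.3, 33.3 and 33.2 CPM in 1014-Ctrl. It separated mock from GRP in 1014-Ctrl only, with a combined change of 0.15 ± 0.038, and 21.4% of its exon bases lie opposite the antisense gene Gm17018. The RC libraries of 1014-Ctrl, which had no GRP, held Fbxw4 at 33.7, 34.3 and 31.2 CPM, also above both mock libraries. In 1181-Ctrl RC and mock overlapped for this gene.

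Marveld1, a membrane protein, rested on 1181-Ctrl, where its log2 fold change was 0.36 ± 0.097 beside 0.014 ± 0.042 in 1014-Ctrl. Marveld1, Kazald1 and Fbxw4 all lie on chromosome 19, the first at 42147400 to 42151703, the second at 45075241 to 45079289 and the third at 45578254 to 45660312. Ing4, a reader of trimethylated histone H3, was at 0.61 ± 0.17 in the combined fit, and Ncmap, a myelin-associated membrane protein, at 0.66 ± 0.18. Sgf29, the histone-reading subunit of the SAGA complex, was at 0.18 ± 0.052. In 1014-Ctrl Sgf29 was at 13.3 and 13.8 CPM under mock and at 16.7, 15.9 and 16.6 CPM under GRP. It was at 16.75, 16.12 and 15.65 CPM under RC without GRP. The RC libraries of 1014-Ctrl also lay above both mock libraries for Ing4 and Kazald1, and overlapped mock for Marveld1, Ncmap and 5430403G16Rik. Within both pairs of equal number the RC library was the higher one for each of these as well. Hhipl2 in 1014-Ctrl was at 0.911 and 0.849 CPM under mock and lower under RC, at 0.463, 0.406 and 0.847 CPM. For Bche and Shisa8 RC overlapped mock in that line. Bche (butyrylcholinesterase), Hhipl2 and Shisa8 had too few reads to be tested in 1181-Ctrl. The mock and GRP libraries of 1181-Ctrl held at most 0.233 CPM of Bche and 0.192 CPM of Shisa8. In 1014-Ctrl Bche, Hhipl2 and Shisa8 were at 0.36 ± 0.14, -1.01 ± 0.37 and -0.84 ± 0.37. With RC-3095 present the same comparison gave 0.03 ± 0.082 for Kazald1, 0.0031 ± 0.045 for Marveld1, 0.02 ± 0.034 for Fbxw4 and -0.09 ± 0.047 for Sgf29.

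**Figure D4:**
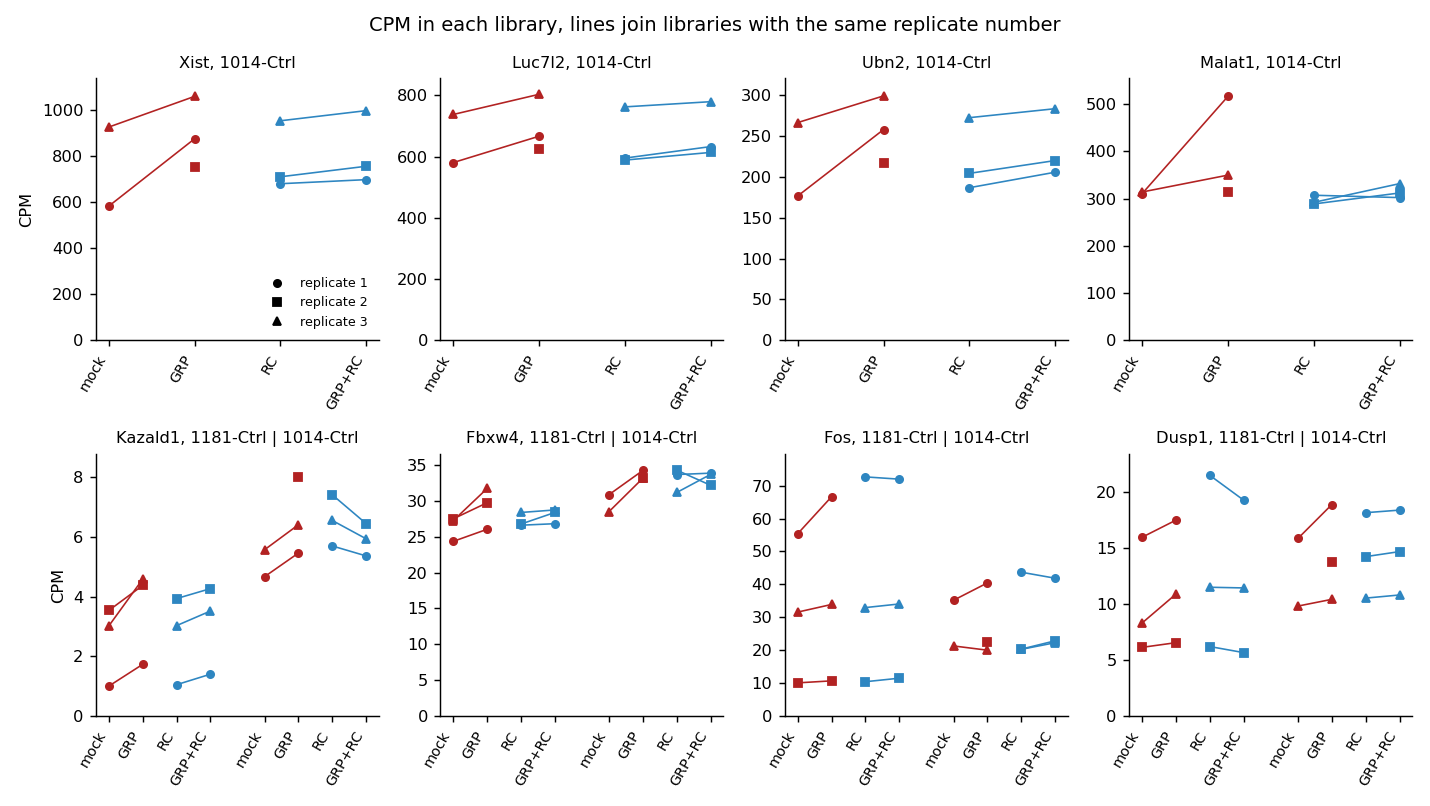
Level (CPM) of leading genes in each used library of 1014-Ctrl or of both control lines by treatment, with red for mock and GRP, blue for RC and GRP+RC, and lines joining replicates of equal number. Xist in 1014-Ctrl rises from 582 to 874 and from 925 to 1058 CPM within its 2 pairs, while the treatments overlap.

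The lines were compared gene by gene. Of the 466 genes with an unadjusted p below 0.05 in 1181-Ctrl that were also tested in 1014-Ctrl, 45.5% had the same sign there, beside 49.2% of all 12992 genes. The unadjusted p was below 0.05 in both lines for 35 genes, 10 of them with the same sign. They were 7.51% of those in 1181-Ctrl, beside 5.78% of all genes with such a p in 1014-Ctrl, and 4.66% of the 751 in 1014-Ctrl, beside 3.59% of all genes with such a p in 1181-Ctrl. Across the 12992 genes Pearson's r between the log2 fold changes of the lines was -0.03, over genes that share libraries and are no independent replicates.

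The pathway below the receptor was described by lists whose members were chosen with earlier results of these data known. Of 19 genes for Gq proteins, phospholipase C beta and protein kinase C, 12 were tested in each line, and the median log2 fold change was 0.013 in 1181-Ctrl and 0.011 in 1014-Ctrl. None was called, and only Prkcq, a protein kinase C gene, had an unadjusted p below 0.05, in 1014-Ctrl (-0.31 ± 0.10).

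The immediate-early transcription factors, which the ERK cascade switches on, were close to their mock levels. Fos was at 55.4, 10.0 and 31.6 CPM under mock and at 66.7, 10.6 and 33.9 CPM under GRP in 1181-Ctrl. In 1014-Ctrl Fos was at 35.2 and 21.3 CPM under mock and at 40.4, 22.4 and 19.97 CPM under GRP. The treatments overlapped in both lines, and the combined log2 fold change was 0.13 ± 0.049 with an adjusted p of 1. Egr1 was at 113, 36.2 and 28.4 CPM under mock and at 131, 32.8 and 43.7 CPM under GRP in 1181-Ctrl, and at 70.3 and 99.7 against 77.2, 30.3 and 104 CPM in 1014-Ctrl. Its combined change was 0.16 ± 0.082 (adjusted p 1), with values that varied more between replicates than between treatments. The fold changes of the list lay mostly on the side of GRP, with 21 of 24 members above 0 in 1181-Ctrl (median 0.092), 16 of 25 in 1014-Ctrl (median 0.025) and 22 of 25 in the combined fit (median 0.064). Over all genes 47.9, 50.6 and 51.7% were above 0, with medians of -0.0029, 0.00099 and 0.0021. In GRP+RC against RC 5 of 25 members were above 0 in the combined fit, with a median of -0.03, beside 48.0% of all genes. Under RC without GRP, Fos was at 72.7, 10.4 and 32.9 CPM in 1181-Ctrl and at 43.7, 20.3 and 20.2 CPM in 1014-Ctrl. Egr1 was at 162, 42.25 and 43.7 CPM under RC in 1181-Ctrl and at 88.8, 23.4 and 93.1 CPM in 1014-Ctrl. For both genes the RC libraries, which had no GRP, overlapped the GRP libraries in each line. Whether the antagonist changed the side of the list was not tested.

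The feedback inhibitors of signalling had a combined median of 0.017, with 13 of 20 members above 0. Dusp1, a phosphatase that switches off MAP kinases, was at 0.17 ± 0.062 (adjusted p 1). The targets of YAP and TAZ, the transcriptional co-activators of the Hippo pathway, had a median of 0.00075 and 10 of 20 members above 0. Ccn1, a secreted YAP target, was at 7.29 and 4.47 CPM under mock and at 7.37, 4.98 and 3.41 CPM under GRP in 1014-Ctrl (-0.19 ± 0.14). In 1181-Ctrl Ccn1 was at 0.996, 0.152 and 0.685 CPM under mock and at 1.16, 0.189 and 1.23 CPM under GRP (0.46 ± 0.32, adjusted p 1), higher in each of the 3 pairs of equal number with overlapping treatments. Secreted and invasion genes had a median of -0.0029 over 15 of 25 members tested. Slc7a11, the cystine transporter, was at 0.10 ± 0.047 and had the lowest p of the ATF4 and unfolded-protein genes, of which 8 of 14 were above 0.

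Melanocyte-lineage genes were above 0 for 8 of 13 members in 1181-Ctrl and for 1 of 13 in 1014-Ctrl, with medians of 0.011 and -0.043. Tyrp1, a melanin-synthesis enzyme, was at 5191 and 3406 CPM under mock and at 5187, 3160 and 3025 CPM under GRP in 1014-Ctrl (-0.13 ± 0.037), and Pmel, the fibril protein of melanosomes, was at -0.06 ± 0.024. Cholesterol-synthesis genes also took opposite sides, 13 of 15 above 0 in 1181-Ctrl and 1 of 15 in 1014-Ctrl, with medians of 0.020 and -0.038. Heat-shock, hypoxia and glycolysis, interferon-stimulated and DNA replication genes had combined medians of -0.02, -0.02, 0.03 and -0.0054. No member of any list was called.

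The genes that GRP induced where the receptor was present were then followed in the control lines. A gene was listed as GRP-induced when it was called higher in at least 2 of the 4 lines with the receptor, whose libraries are not those of the control lines, which gave 392 genes. The values that chose the list had a median log2 fold change of 1.59 in 1057 and 1.38 in 1064, and of 1.44 and 0.12 in 1014-Grpr and 1181-Grpr. In 1181-Ctrl 283 of them had enough reads to be tested, in 1014-Ctrl 311 and in the combined fit 337. The 109 and 81 that were not tested in a line had a mean of at most 0.257 and 0.390 CPM in its GRP libraries, and 63 and 43 of them were at or under the 3-read limit there.

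Among the tested genes the median was 0.0047 in 1181-Ctrl, 0.0064 in 1014-Ctrl and 0.0043 in the combined fit. Above 0 were 146 of 283, 167 of 311 and 175 of 337, and none was called. An unadjusted p below 0.05 was found for 6 higher and 10 lower genes in 1181-Ctrl and for 8 higher and 4 lower in 1014-Ctrl, together 5.65% and 3.86%, beside 3.62% and 5.71% of all genes. Within pairs of equal number the median log2 difference of these genes was 0.10, -0.09 and 0.06 in 1181-Ctrl and 0.013 and -0.00073 in 1014-Ctrl. The 110 genes listed as GRP-repressed by the same rule had medians of 0.018 in 1181-Ctrl and -0.013 in 1014-Ctrl. For 307 induced genes tested in both 1014-Ctrl and 1014-Grpr the upper limit of the interval in 1014-Ctrl lay under 2-fold for 277, and the interval lay wholly below that of 1014-Grpr for 254, a line whose calls helped to choose the list. For 279 genes tested in both 1181-Ctrl and 1181-Grpr these counts were 255 and 50.

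Among the members with the largest mean change were Ccn1, Mmp10, Nr4a3, Plaur, Ptchd1, Rgs16, Serpinb2, Stc1 and Tnc. Plaur, the receptor of urokinase, was at 2.43 and 2.92 CPM under mock and at 2.37, 3.81 and 3.04 CPM under GRP in 1014-Ctrl, and at 1.64, 1.76 and 1.68 against 23.3, 41.3 and 34.9 CPM in 1014-Grpr. Nr4a3, an orphan nuclear receptor of the immediate-early class, was at 3.38 and 4.10 CPM under mock and at 4.38, 4.83 and 3.57 CPM under GRP in 1014-Ctrl, and in 1014-Grpr it went from 2.21 to 4.95 CPM under mock to 58.7 to 140 CPM under GRP. Tnc, the matrix protein tenascin C, was at 5.09 and 3.73 CPM under mock and at 4.82, 5.05 and 3.34 CPM under GRP in 1014-Ctrl, and in 1014-Grpr at 2.46, 3.71 and 1.72 CPM under mock and 53.0, 159 and 158 CPM under GRP. In these genes mock and GRP overlapped in 1014-Ctrl and were apart in 1014-Grpr.

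Rgs16, which speeds the inactivation of Gq and Gi proteins, was at 0 in every mock and GRP library of 1181-Ctrl and reached 0.180 CPM in 1014-Ctrl, beside 30.03 to 99.7 CPM under GRP in 1014-Grpr. Ptchd1 had no read in the mock and GRP libraries of either control line. Serpinb2, an inhibitor of plasminogen activators, was at most 0.301 CPM in these libraries, Stc1 (stanniocalcin) at most 0.293 CPM and Mmp10 (stromelysin-2) at most 0.167 CPM. Of the repressed genes, Kcna2, a potassium channel, was at 0.0043 ± 0.12 and Rnf144a, a ubiquitin ligase, at -0.11 ± 0.083 in the combined fit.

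**Figure D5:**
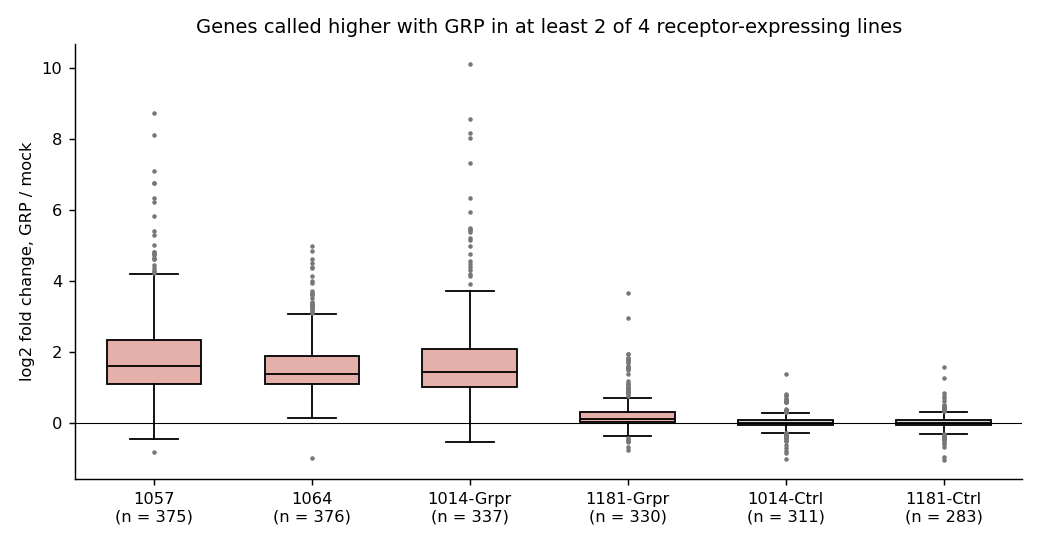
Log2 fold change of GRP against mock for the GRP-induced genes in the lines with the receptor and in the control lines (boxes are quartiles with the median, whiskers reach to 1.5 interquartile ranges and points lie beyond). The medians are 1.59 in 1057, 1.38 in 1064, 1.44 in 1014-Grpr and 0.12 in 1181-Grpr, the lines that chose the genes. They are 0.0047 in 1181-Ctrl and 0.0064 in 1014-Ctrl.

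Whether the GRP effect differed with the receptor was tested by the interaction of line version and treatment. Between 1014-Grpr and 1014-Ctrl 619 of 14404 genes were called (4.3%). The log2 fold change was higher in 1014-Grpr for 431 of them (2.99%) and lower for 188. For genes induced by GRP in both 1057 and 1064, a list of 254 that uses neither version of line 1014, 194 were tested in this comparison, and 102 of them (52.6%) were called larger in 1014-Grpr, with a median difference of 1.08. On the log2 scale the difference was 5.66 ± 0.34 for Tnc, 4.18 ± 0.27 for Plaur and 1.92 ± 0.20 for Fos. Between 1181-Grpr and 1181-Ctrl 0 of 15286 genes were called (0%), with 939 at an unadjusted p below 0.05 and a lowest adjusted p of 0.0819 in edgeR's test, and 0 of 185 members of the same list. DESeq2 called 504 and 0 genes in these comparisons.

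Last, GRP was compared in the presence of the antagonist. The RC and GRP+RC libraries are other samples than those of GRP and mock, but they entered the same fits. Both comparisons therefore share the replicate blocks and the estimate of the spread, and are not independent measurements. In GRP+RC against RC 0 of 14188 genes were called in 1181-Ctrl, 0 of 13918 in 1014-Ctrl and 0 of 15284 in both combined (0% each), by edgeR and by DESeq2 alike. At an unadjusted p below 0.05 there were 1095, 576 and 1154 genes. Of the 513 genes with a low p for GRP in 1181-Ctrl, 41.7% had the same sign with the antagonist present, and of the 795 in 1014-Ctrl 54.3% did, beside 47.4 and 50.8% of all genes tested. Of the 578 genes of the combined fit, 50.7% kept their sign, beside 50.6% of all genes.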

How the data were processed

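RNA of the 72 samples was sequenced from stranded poly(A) libraries. The authors aligned reads with STAR to mm10 (GRCm38.p5) with GENCODE annotation, after FastQC 0.11.5, and deposited raw counts per gene, which were used here as deposited. Their TPM values were not used. Symbols and positions (GRCm38) were matched for 50376 of 50600 gene identifiers. Per line, the libraries of all 4 treatments were fitted (12 for 1181-Ctrl, 11 for 1014-Ctrl) with edgeR 4.0.16 in R 4.3.3, TMM scaling, filterByExpr, treatment terms and a block for replicate number. The lines were then fitted jointly and the GRP effects averaged. P-values are two-sided and were adjusted by Benjamini-Hochberg over all genes tested. CPM values use TMM factors over the 72 libraries. Scripts were tested on simulated data.

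Equal numbers pair the samples: residuals of libraries with the same number correlated at 0.740 to 0.872 in 1181-Ctrl and 0.340 to 0.462 in 1014-Ctrl, against at most 0.049 for other pairs. No pair of replicates agreed within sampling noise.

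The members and lists were chosen with earlier results of these data known. Named were the 10 genes with the lowest combined p and equal sign in both lines, the 5 with the lowest p per line, bombesin-family genes, the 10 most induced and 3 most repressed genes, 2 members per list and label checks, of which some are not reported here; Malat1, the structural RNAs, and list members outside this rule were chosen after their values were seen. Alternatives were DESeq2 1.42.0, its size factors, no filter on low counts, no fold limit, no block and only the treatments compared. Others were the libraries that went against their labels kept, each replicate left out and, added after seeing the data, all 1181-Ctrl libraries numbered 1 left out.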

Additional observations from a re-analysis of the deposited data

Results flagged for a closer look

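The test of the difference between the GRP effects of 1014-Grpr and 1014-Ctrl was passed by 619 genes. Among the named genes the log2 fold change was higher in 1014-Grpr by 7.49 for Serpinb2, 6.29 for Cxcl1, 5.69 for Ccn1, 5.66 for Tnc, 4.57 for Nr4a3, 4.18 for Plaur, 4.04 for Mmp10 and 3.59 for Stc1. For Egr1, Fos, Slc7a11, Nt5e, Cd68 and Hspb1 it was higher by 1.97, 1.92, 1.46, 1.2, 1.19 and 1.01. The difference was -1.33 for Kcna2 and -1.05 for Rnf144a, which were lower under GRP in 1057, 1064 and 1014-Grpr. In 1181-Grpr their log2 fold changes were 0.076 and -0.040. Except for Cxcl1, Egr1, Slc7a11 and Hspb1, these genes belong to the induced and repressed lists, which were chosen partly on 1014-Grpr. Cxcl1, Serpinb2, Stc1 and Mmp10 had at most 13, 10, 8 and 5 reads in any 1014-Ctrl library used, so that the size of their difference depends on the fit.

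The same test was passed by 5 genes that had been named for a low p in 1014-Ctrl or in the combined fit. Their differences were -1.45 for Ncmap, -1.33 for Ing4, -1 for 5430403G16Rik, 1.68 for Hhipl2 and 2.48 for Shisa8, each opposite in sign to the gene's own change in 1014-Ctrl. They were chosen on libraries that enter the difference, so it is no independent test of them.

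The library labelled 1014-Ctrl mock replicate 2, which was left out of the reported fits, held Grpr at 48.1 CPM and Ddx3y at 64.3 CPM, above the highest value of the other libraries of this line.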

How the results depend on the processing

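Of 208 alternatives to the counts, medians and shares reported, 193 gave the same result. A count or share was taken as the same when it lay within 1.5-fold of the reported one, and a count of 0 when it stayed at 0. A median was taken as the same when it moved by less than the standard deviation of the medians of the replicate pairs. These are wide limits for a share. In 1014-Ctrl the count of called genes was 1 without the fold limit (Xist), 4 without the filter on low counts (Gm48714, Mir6236, Rn7sk and Rpph1) and 1 with only the libraries of GRP and mock (Mir6236). Leaving out replicates gave 0 to 4, the 4 being Gm23935, Gm42418, Mir6236 and Rn7sk without GRP replicate 1, all higher under GRP. The median of the induced genes in 1014-Ctrl then ranged from -0.000672 to 0.0233. Without the filter on low counts 4 genes were called for the difference between the lines, 10 for 1181-Grpr against 1181-Ctrl (Plaur and Timp1 among them), and 1 for GRP+RC against RC in 1181-Ctrl and in both lines combined (Rps27a-ps2), and the share of intervals within 2-fold fell to 46.8% in 1014-Ctrl, 49.3% in 1181-Ctrl and 44.9% in the combined fit, since more genes with few reads entered. Keeping the libraries that went against their labels gave 209 genes in the combined fit and 207 for the difference between the lines, all lower, and moved the combined log2 fold change of Ddx3y to -6.06. Without the fold limit 5662 genes were called for 1014-Grpr against 1014-Ctrl.

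Without the replicate block no gene was called in 1181-Ctrl, in 1014-Ctrl or in the combined fit, and 37, 200 and 123 had an unadjusted p below 0.05. The count for 1014-Grpr against 1014-Ctrl was then 430 against 619 with it, and every other count stayed at 0. With all 1181-Ctrl libraries numbered 1 left out, an alternative chosen after seeing the data, 0 genes were called in 1181-Ctrl and in the combined fit.

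The adjusted p of Xist in 1014-Ctrl was 0.0407 with DESeq2's size factors, 0.0276 with only GRP and mock, 0.843 in DESeq2, 1 without the block, 0.543 with the library kept and 6.48e-40 without the filter. It was 0.999 without mock replicate 1 and 0.00275 to 0.0447 without the others. The cause was not tested. Depth limits the result for genes under 1 CPM.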

Other observations

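With the antagonist present, targets of ATF4, the transcription factor of the amino-acid and unfolded-protein response, lay below 0 in GRP+RC against RC. In the combined fit 0 of 14 members were above 0, with a median log2 fold change of -0.10 beside -0.0027 over all genes, and 9 had an unadjusted p below 0.05, beside 7.55% of all genes. Phgdh, the first enzyme of serine synthesis, was at 45.3, 118 and 80.4 CPM under RC and at 42.4, 106 and 57.6 CPM under GRP+RC in 1181-Ctrl. In 1014-Ctrl Phgdh was at 304, 203 and 253 CPM under RC and at 277, 162 and 245 CPM under GRP+RC. The treatments overlapped in both lines, and the GRP+RC library was the lower one in all 6 pairs of equal number. Its combined change was -0.21 ± 0.052, with an adjusted p of 0.502 in edgeR's test. Asns, which makes asparagine, changed by -0.18 ± 0.051 and Psat1 of serine synthesis by -0.13 ± 0.037, with an adjusted p of 0.525 each. The list's median was -0.17 in 1181-Ctrl and -0.02 in 1014-Ctrl. In 1181-Ctrl replicate 3, Phgdh was at 56.9 CPM under mock and 70 CPM under GRP, so GRP+RC lay near mock and RC was the highest. Psat1 was at 100, 119, 130 and 100 CPM there under mock, GRP, RC and GRP+RC. In replicates 1 and 2 of that line Phgdh was at 41.6 and 130 CPM under mock, and in 1014-Ctrl at 283 and 263 CPM. The part of 1181-Ctrl RC replicate 3 in the median was not tested. Over both fits the adjusted test called none of these genes. GRP without the antagonist gave a combined median of 0.0022.

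Cholesterol-synthesis genes lay on the other side. In GRP+RC against RC 15 of 15 were above 0 in 1181-Ctrl, with a median of 0.09, beside 5 of 15 in 1014-Ctrl, with a median of -0.0047. None of these genes passed the adjusted test. These lists were chosen with earlier results of these data known.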
